A study of Homo sapiens with 9 samples.

Results

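The genes described here are the 8 E2F transcription factors, E2F1 to E2F8, and the cyclin E genes CCNE1 and CCNE2, taken as the rows of the deposited count and FPKM tables whose gene symbol is one of these 10 names. All 10 were found, each on 1 row, among 48162 genes, and all 10 passed the filter on low counts that left 15776 genes for testing. RNA-seq was done on total RNA of SKMEL28, a BRAF-mutant human melanoma cell line, grown with 5% serum and transduced with lentivirus carrying short hairpin RNAs. The shCont cells carried a hairpin against GFP, the shp16 cells a hairpin against p16, and the shp16+shATR cells hairpins against p16 and against ATR, with 3 libraries in each group and 1 µg/ml puromycin for 3 days in all of them. The design asks what the loss of p16 does to these melanoma cells and which part of that depends on ATR. Which of the ATR hairpins was used, and whether the shp16 cells received a control virus to match the second one, is not given in the sources used here, so an effect of ATR loss and one of a second transduction cannot be told apart.

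p16, a product of CDKN2A, inhibits the cyclin D kinases, which phosphorylate the retinoblastoma protein RB. Unphosphorylated RB and its relatives p107 and p130, together called pocket proteins, hold E2F factors at the promoters of genes for DNA synthesis and keep them silent. Once RB is phosphorylated, E2F1, E2F2 and E2F3 act mainly as activators, and cyclin E, itself an E2F target, joins CDK2 to phosphorylate RB further and to start S phase. E2F4 and E2F5 act mainly as repressors with p107 and p130, E2F6 represses without a pocket protein, and E2F7 and E2F8 bind DNA without a DP partner and repress. ATR is the kinase that responds to stalled replication forks and restrains CDK2.

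Promoters are shown first, because some of the E2F genes and cyclin E are themselves targets of E2F. They are those of the 4 members that passed the test and whose promoter was read from the RefSeq table used here (GRCh38.p14). Each runs from 250 bases before the annotated start to 50 bases after it, 300 bases in all, on the strand of the gene. Capitals mark matches on either strand to the E2F motif, searched as TTTCCCGC, TTTCGCGC, TTTGCCGC and TTTGGCGC. They lie at chr20:33686336-33686635 (E2F1, minus strand), chr1:23531184-23531483 (E2F2, minus strand), chr16:67191905-67192204 (E2F4, plus strand) and chr19:29811741-29812040 (CCNE1, plus strand).
E2F1: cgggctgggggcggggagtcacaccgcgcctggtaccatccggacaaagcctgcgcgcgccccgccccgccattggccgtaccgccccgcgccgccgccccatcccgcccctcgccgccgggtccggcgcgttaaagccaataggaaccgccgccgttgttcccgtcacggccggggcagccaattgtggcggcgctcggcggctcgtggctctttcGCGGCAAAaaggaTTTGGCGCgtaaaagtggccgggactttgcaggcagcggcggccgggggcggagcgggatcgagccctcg
E2F2: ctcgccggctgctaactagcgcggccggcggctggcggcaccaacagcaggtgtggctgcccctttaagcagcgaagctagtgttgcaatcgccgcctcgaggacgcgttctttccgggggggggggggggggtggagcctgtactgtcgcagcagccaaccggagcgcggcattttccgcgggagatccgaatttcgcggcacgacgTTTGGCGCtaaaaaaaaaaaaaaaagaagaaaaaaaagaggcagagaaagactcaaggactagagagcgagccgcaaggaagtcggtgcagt
E2F4: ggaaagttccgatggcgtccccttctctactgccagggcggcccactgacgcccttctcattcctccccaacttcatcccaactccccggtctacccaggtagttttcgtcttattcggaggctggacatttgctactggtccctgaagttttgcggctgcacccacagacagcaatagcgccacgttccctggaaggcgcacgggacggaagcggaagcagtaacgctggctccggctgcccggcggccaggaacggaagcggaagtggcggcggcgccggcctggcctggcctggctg
CCNE1: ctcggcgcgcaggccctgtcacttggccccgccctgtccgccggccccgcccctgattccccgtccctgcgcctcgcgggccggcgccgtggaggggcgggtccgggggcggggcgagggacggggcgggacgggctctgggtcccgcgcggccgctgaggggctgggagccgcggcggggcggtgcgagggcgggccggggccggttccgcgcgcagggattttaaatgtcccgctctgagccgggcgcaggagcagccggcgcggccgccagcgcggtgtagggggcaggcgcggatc

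E2F1 held 2 matches that did not overlap, at positions -33 to -26 and -20 to -13 from the start, and E2F2 held 1, at -42 to -35. E2F4 and CCNE1 held none of these spellings in the window. Promoters were read for 7 of the 10 members, with a pair for E2F3. Entries on chromosome 8, where E2F5 and CCNE2 lie, were left out of the search of members, and none was read for E2F8. Of the 8 promoters read, 3 held a match, the third being the more upstream of the E2F3 promoters. Of all 35116 promoters of the same length, 1164, or 3.31%, held one. The cell-cycle element TTTGAA, searched on both strands, was in that same E2F3 promoter and in no other of the 8, and in 15.2% of all promoters. A match is a stretch of letters and not a shown binding site.

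Libraries held 17314662 to 23588174 counts. CDKN2A stood at 103 to 162 CPM (counts scaled to library size) in shCont, 78.1 to 99.9 in shp16 and 82.4 to 90 in shp16+shATR; its log2 fold change was -0.48 in shp16 against shCont, which missed the threshold (adjusted p = 0.0723, edgeR), and -0.57 in shp16+shATR against shCont, which passed it (adjusted p = 0.0263). With the libraries shCont 1 and shp16 1 both left out, which held the highest and lowest CDKN2A level of these 6 libraries, the change in shp16 against shCont was -0.16 (adjusted p = 0.0817) and that in shp16+shATR against shCont -0.35 (adjusted p = 0.000128). CDKN2A counts also take in the ARF transcript of that locus. ATR fell in shp16+shATR against shp16 (log2 fold change -1.12, SE 0.22, adjusted p = 0.0128), from 83.4 to 93.5 CPM down to 39.9 to 41. Library shCont 1 stood apart from the other shCont libraries, with ATR at 45.9 CPM against 93.5 and 96.4 CPM, and library shp16 1 stood apart from the other shp16 libraries. The mean chi-square per gene between libraries of a group was 68.5 and 83.4 for the pairs with shCont 1 against 5.15 for the other pair. It was 37.9 and 37.2 for the pairs with shp16 1 against 1.94 for the other pair. Read sampling alone would give about 1, so shp16 2 and 3 differed little beyond it. A setting that sums them is given below. The counts of calls, and many single results, are also given with both left out. This setting was chosen after seeing the data and keeps only shCont 2 and 3 and shp16 2 and 3 in those groups. Removing the libraries that stood apart lowers the estimated spread, from 0.149 to 0.0553 as a common biological coefficient of variation. It called 5264, 4304 and 7130 of all genes in place of 2339, 981 and 3724. Small adjusted p-values from it are therefore not independent support for a call. No label says that the libraries of a group came from separate cultures, and the study describes its LSS mRNA values as technical replicates of a single experiment without naming the assay. The p-values measure only the spread between these libraries, which may therefore be technical.

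Among the 10 members, E2F1 mRNA was the most abundant in every group and E2F5 the least. On the FPKM scale, which corrects for gene length, E2F1 averaged 42.2 ± 3.43 (SD, n = 3 libraries here and below) in the shCont cells, 46.1 ± 1.83 with the p16 hairpin and 30.1 ± 1.87 with both hairpins. E2F4 came second with 23.2 ± 3.58, 12.6 ± 2.61 and 10.7 ± 1.44 FPKM. In shCont no E2F4 library overlapped E2F1 or the next gene, E2F7, whereas in the other groups its libraries overlapped those of E2F3. E2F3, E2F6 and E2F7 formed a middle group whose group means lay between 7.45 and 10.6 FPKM, and E2F6 and E2F7 overlapped except in the cells with both hairpins. CCNE1 averaged 4.15 to 7.07 FPKM, E2F2 3.74 to 5.92 and E2F8 3.55 to 5.72, and E2F2 and E2F8 overlapped in every group. CCNE2 lay lower, at 1.72 to 2.94 FPKM, and E2F5 lay near 0.5 FPKM with 39 to 66 counts per library.

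**Figure D1:**
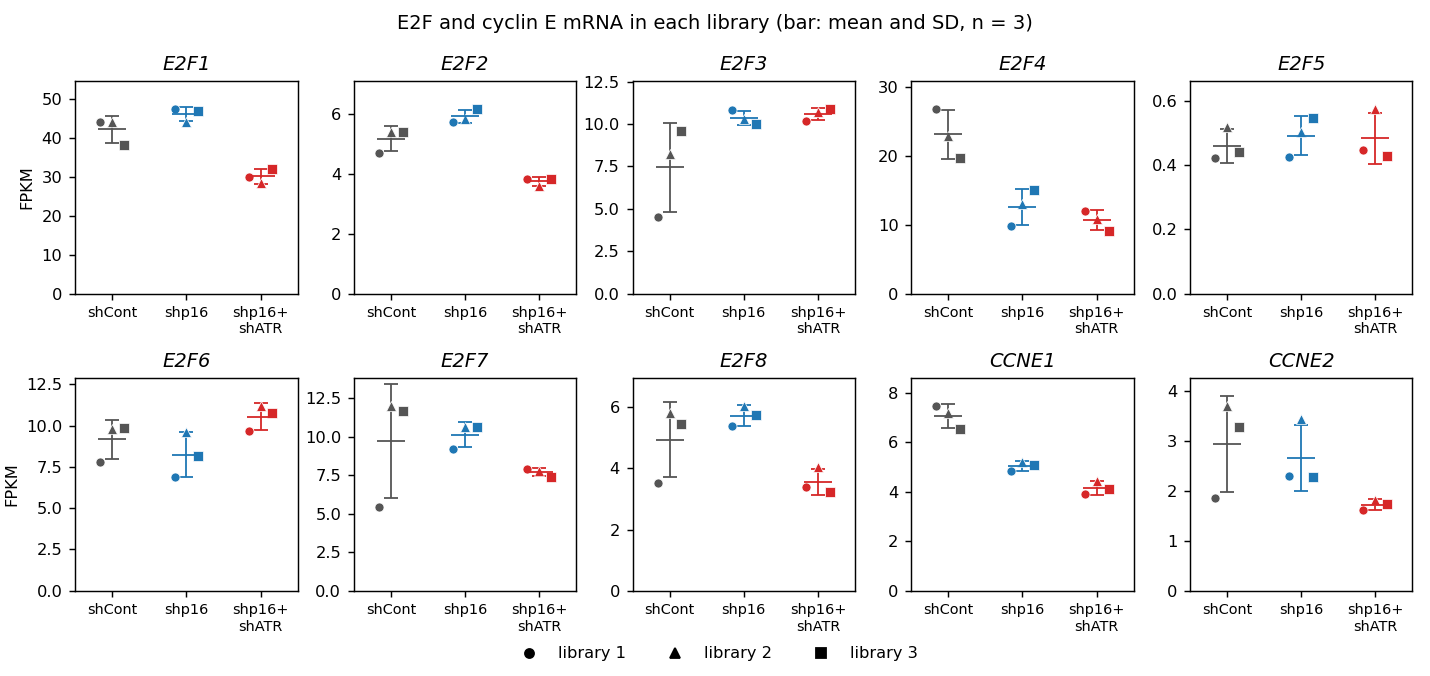
FPKM (y axis, each panel on its own scale from 0) of the 10 members in the 9 libraries, with the mean and SD of each group. The shape of a point gives the library number, which was not used to pair libraries across groups in the main test. E2F1 and E2F2 are lowest in all 3 shp16+shATR libraries, E2F4 and CCNE1 are highest in all 3 shCont libraries, and library shCont 1 lies below the other shCont libraries for E2F3, E2F7, E2F8 and CCNE2.

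Summed over the 8 E2F genes, the FPKM was 97.4 to 109 in the control cells, 95.8 to 103 with the p16 hairpin and 77.2 to 77.9 with both hairpins. The composition of this sum also differed between groups. E2F4 made up 22.8% ± 4.24 of it in control cells, 12.6% ± 2.17 with the p16 hairpin and 13.8% ± 1.91 with both. E2F1 made up 41.3% ± 3.68, 46.3% ± 2.88 and 38.9% ± 2.22. The share of E2F6 was 8.96% ± 0.911 and 8.25% ± 1.24 in shCont and shp16 and 13.6% ± 1.01 in shp16+shATR, and that of E2F3 was 7.25% ± 2.48, 10.4% ± 0.785 and 13.7% ± 0.404. The FPKM ratio of E2F1, an activator, to E2F4, a repressor, was 1.64, 1.93 and 1.93 in the shCont libraries, 4.81, 3.39 and 3.12 in shp16, and 2.49, 2.6 and 3.51 in shp16+shATR. In every library with the p16 hairpin this ratio was above all 3 shCont libraries. These shares and ratios are descriptions of mRNA levels and were not tested.

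With the p16 hairpin alone, E2F4 and CCNE1 were called lower and no member was called higher. Both cyclin E genes and the E2F genes were compared between shp16 and shCont by edgeR's quasi-likelihood test with adjustment over all 15776 genes. Of the 10 members, 2 were called lower and 0 higher, where 7.59% of all genes tested were called lower and 7.23% higher. At an unadjusted p under 0.05, 1 member was higher, and DESeq2 called 0 higher and 2 lower. Of the 30291 genes given to DESeq2, it called 4.59% higher and 4.37% lower. For the unadjusted p, here and below, no share over all genes is given, so those counts have no background to be read against. Over the 10 members the log2 fold changes had a median of 0.10, beside -0.02 for all genes tested. Upper-quartile scaling gave 922 higher and 1475 lower calls over all genes in place of 1141 and 1198, and called the same 2 members lower.

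E2F4, the main repressor E2F of resting cells, stood at 26.9, 22.9 and 19.8 FPKM in the shCont libraries and at 9.86, 13 and 15 FPKM in the shp16 libraries. Every shp16 library was below every shCont library. E2F4 fell by 0.88 on the log2 scale (SE 0.163, adjusted p = 0.00423), to 0.543 of the shCont level. With shCont 1 and shp16 1 both left out it was -0.61 (adjusted p = 0.000129).

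CCNE1, the cyclin E gene expressed at the higher level here, stood at 7.47, 7.2 and 6.53 FPKM in shCont and at 4.82, 5.21 and 5.09 FPKM in shp16. The groups did not overlap. CCNE1 fell by 0.48 (log2, SE 0.125, adjusted p = 0.0241), to 0.716 of the shCont level. This call held under 12 of 22 alternatives. Its adjusted p was 0.0572 without shCont 2, and 0.0517, 0.0784 and 0.0862 without shp16 1, 2 and 3, with log2 fold changes between -0.50 and -0.47, and it was 0.0752 with only the groups compared in the model. With shCont 1 and shp16 1 both left out CCNE1 was called (log2 fold change -0.42, adjusted p = 0.0149).

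The activators were not called in this comparison. E2F3 stood at 4.52, 8.21 and 9.61 FPKM in shCont and at 10.8, 10.3 and 10 FPKM in shp16. Its shCont libraries spread widely while the shp16 libraries lay close together above them. The log2 fold change of E2F3 was 0.50 (95% interval 0.06 to 0.94, SE 0.2, adjusted p = 0.117). E2F3 was called higher without shCont 3 (0.73, adjusted p = 0.026) and with no filter on low counts. With shCont 1 and shp16 1 both left out it was 0.18 (adjusted p = 0.107). E2F1 (0.14, 95% interval -0.11 to 0.39) and E2F2 (0.21, -0.02 to 0.43) had intervals that took in 0.

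Of the remaining repressors, E2F6 had a log2 fold change of -0.15 (adjusted p = 0.474) and E2F5 of 0.10 (adjusted p = 0.785). E2F7, at 5.44, 12 and 11.7 FPKM in shCont and 9.2, 10.6 and 10.6 FPKM in shp16, had 0.09 (adjusted p = 0.826), and its sign turned to -0.19 without shCont 1 and to -0.16 with shp16 1 left out as well, neither called. E2F8 had 0.23 (adjusted p = 0.365). CCNE2, at 1.86, 3.7 and 3.27 FPKM in shCont and 2.3, 3.43 and 2.27 FPKM in shp16, had -0.12 (adjusted p = 0.763). These libraries held 146 to 235 CCNE2 counts, and the wide interval of -0.62 to 0.37 leaves a change of either sign possible. The CCNE2 gene model overlaps NDUFAF6 and INTS8 on the opposite strand and that of E2F5 overlaps C8orf59. The strand setting of the counting is not given in the sources used here, so reads from those overlaps cannot be told apart.

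When the ATR hairpin was added to the p16 hairpin, E2F1, E2F2 and E2F8 were called lower and no member was called higher. Of the 10 members, 3 were called lower and 0 higher in shp16+shATR against shp16, where 3.49% of all genes tested were called lower and 2.73% higher. At an unadjusted p under 0.05, 5 members were lower and 1, E2F6, was higher, and DESeq2 called 3 lower and 0 higher. Over all its genes DESeq2 called 2.58% lower and 2.07% higher. The members' median log2 fold change was -0.34, beside 0 for all genes tested. Upper-quartile scaling gave 533 higher and 451 lower calls over all genes in place of 430 and 551, with 3 members again called lower. With shCont 1 and shp16 1 both left out, 7 members were called, 6 lower and 1 higher, where 14.3% of all genes were called lower and 12.4% higher.

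E2F1, the activator best known for also driving apoptosis, stood at 47.5, 44 and 46.8 FPKM in shp16 and at 29.9, 28.4 and 32.1 FPKM in shp16+shATR. All 3 shp16+shATR libraries were also below all 3 shCont libraries, which held 44.1, 44.2 and 38.2 FPKM. E2F1 fell by 0.62 (log2, SE 0.115, adjusted p = 0.0095), to 0.65 of the shp16 level. Without shp16+shATR library a or b the adjusted p was 0.0722 or 0.0725 at log2 fold changes of -0.61 and -0.57. With shCont 1 and shp16 1 both left out the change was -0.56 (adjusted p = 5.72e-06).

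E2F2, a close relative of E2F1 with the same activating role, stood at 5.74, 5.83 and 6.17 FPKM in shp16 and at 3.84, 3.58 and 3.81 FPKM in shp16+shATR. The shCont libraries, at 4.69, 5.41 and 5.4 FPKM, lay between these groups without overlapping either. The log2 fold change was -0.67 (SE 0.104, adjusted p = 0.00388), or 0.63 of the shp16 level. It was called under all 21 alternative settings, with a log2 fold change between -0.70 and -0.54 and an adjusted p of at most 0.0469.

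E2F8, an atypical repressor that is itself induced in S phase, stood at 5.37, 6.04 and 5.75 FPKM in shp16 and at 3.38, 4.04 and 3.23 FPKM in shp16+shATR. The groups did not overlap. Its log2 fold change was -0.69 (SE 0.162, adjusted p = 0.0279). It was called under 9 of 21 alternatives. Leaving out any of the shp16 or shp16+shATR libraries alone raised its adjusted p to between 0.0702 and 0.129, while leaving out shCont 1 and shp16 1 together lowered it to 5.4e-05 at a log2 fold change of -0.70.

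E2F7, the other atypical repressor, stood at 9.2, 10.6 and 10.6 FPKM in shp16 and at 7.93, 7.78 and 7.4 FPKM in shp16+shATR. Its groups did not overlap, yet its log2 fold change of -0.40 (SE 0.213) had an adjusted p of 0.329. The model shares 1 dispersion per gene among all 9 libraries, and the shCont libraries of E2F7 spread from 5.44 to 12 FPKM. With shCont 1 left out the change was again -0.40, with an adjusted p of 0.000721. E2F6 stood at 6.92, 9.64 and 8.15 FPKM in shp16 and at 9.67, 11.2 and 10.8 FPKM in shp16+shATR. It had 0.36 (SE 0.126, adjusted p = 0.126), and without shCont 1 it was called higher at 0.36 (adjusted p = 0.0202).

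The cyclin E genes were not called between shp16+shATR and shp16. CCNE1 stood at 3.9, 4.43 and 4.12 FPKM in shp16+shATR, with a log2 fold change of -0.28 (95% interval -0.56 to -0.01, adjusted p = 0.24). CCNE2 stood at 1.61, 1.82 and 1.74 FPKM, below all 3 shp16 libraries, with -0.63 (SE 0.233, adjusted p = 0.148), and it was called without shCont 1 (-0.63, adjusted p = 0.0168). E2F4 did not fall further by the main test (-0.24, 95% interval -0.60 to 0.12, adjusted p = 0.475), and with shCont 1 and shp16 1 both left out it was called at -0.36 (adjusted p = 0.00831). E2F3 (0.02, -0.41 to 0.46) and E2F5 (-0.02, -0.48 to 0.44) had wide intervals around 0.

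**Figure D2:**
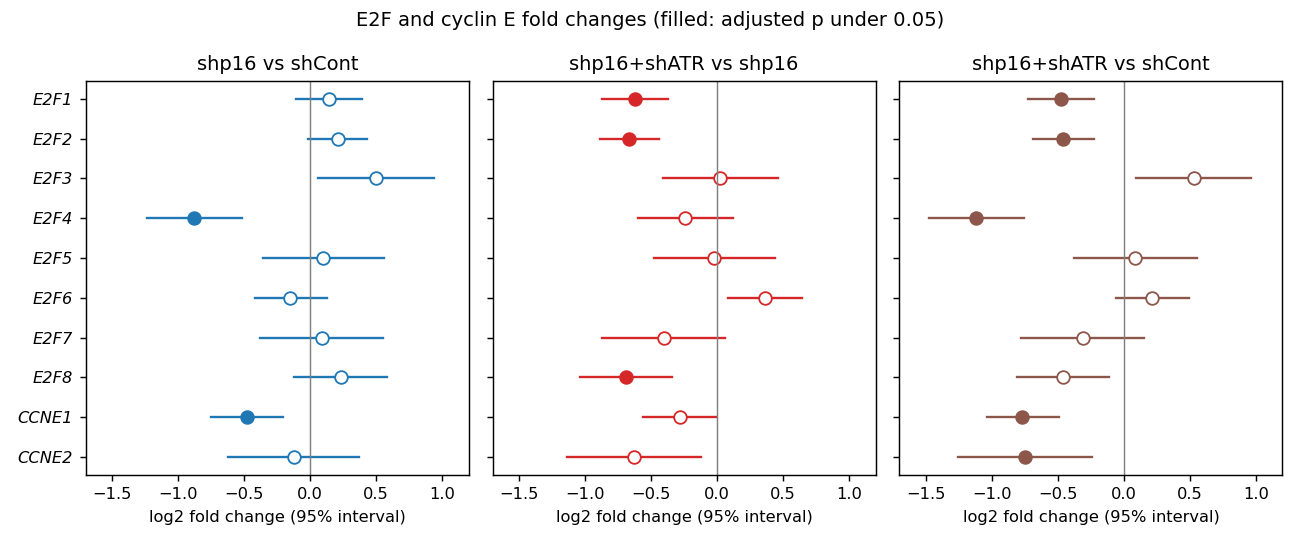
log2 fold change (x axis) of each member (y axis) with its 95% interval in the 3 comparisons, from edgeR; filled points passed an adjusted p of 0.05. E2F4 and CCNE1 are filled at -0.88 and -0.48 with the p16 hairpin, E2F1, E2F2 and E2F8 at -0.62, -0.67 and -0.69 when the ATR hairpin was added, and no point to the right of 0 is filled.

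Against shCont, the cells with both hairpins had lower E2F1, E2F2, E2F4, CCNE1 and CCNE2. This comparison shares the shp16+shATR libraries with the preceding one and the shCont libraries with the first, so it is not a separate replication of either. Of the 10 members, 5 were called lower and 0 higher, where 12.7% of all genes tested were called lower and 10.9% higher. At an unadjusted p under 0.05, 1 member, E2F3, was higher, and DESeq2 called 0 higher and 5 lower. Over all its genes DESeq2 called 6.41% higher and 6.69% lower. With shCont 1 and shp16 1 both left out, 7 members were called lower and 1 higher, where 23.2% and 21.1% of all genes were.

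E2F4, at 12, 10.9 and 9.17 FPKM in shp16+shATR, had the lowest of these fold changes (-1.12, SE 0.165, adjusted p = 0.000608), or 0.461 of the shCont level. CCNE1 followed (-0.77, SE 0.126, adjusted p = 0.00119), at 0.588 of the shCont level. Both were called under all 21 alternatives. E2F1 had -0.48 (adjusted p = 0.0104) and E2F2 had -0.46 (adjusted p = 0.00774). E2F1 was not called without shp16+shATR library a or b (adjusted p = 0.0571 and 0.0621).

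CCNE2, which is induced like CCNE1 at the start of S phase, had -0.75 (SE 0.232, adjusted p = 0.0362), with 93 to 138 counts in the shp16+shATR libraries. It was called under 10 of 21 alternatives, and leaving out single libraries moved its adjusted p to 0.124 without shCont 2, 0.0856 without shCont 3, and 0.117, 0.0895 and 0.0922 without shp16+shATR a, b and c. E2F3 had 0.53 (adjusted p = 0.079), which was 0.28 and called without shCont 1 (adjusted p = 0.0489), and 0.75 and called without shCont 3 (adjusted p = 0.0157). E2F7 (-0.31, adjusted p = 0.321) and E2F8 (-0.46, adjusted p = 0.0599) were called without shCont 1, at -0.59 and -0.63 (adjusted p = 4.15e-05 and 0.00066). E2F6 had 0.21 (adjusted p = 0.257) and E2F5 0.08 (adjusted p = 0.81).

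The genes that act with E2F and cyclin E were read from 5 lists: DP partners, pocket proteins, MuvB and MYB proteins of the DREAM complex, the cyclin E kinase with its activators and inhibitors, and the turnover of cyclin E and E2F. Of their 26 genes 25 were tested, the exception being TFDP3, which was listed at 0 in every library. In shp16 against shCont 6 were called higher and 3 lower, beside 7.23% and 7.59% of all genes tested. In shp16+shATR against shp16 1 was called higher and 3 lower, beside 2.73% and 3.49%. In shp16+shATR against shCont 4 were called higher and 4 lower, beside 10.9% and 12.7%. In the same order, upper-quartile scaling gave 5 higher and 4 lower, 2 higher and 2 lower, and 4 higher and 4 lower. Over all genes that scaling called 5.84% higher and 9.35% lower, 3.38% and 2.86%, and 10.3% and 13.3%. With shCont 1 and shp16 1 both left out the counts were 8 higher and 7 lower, 3 higher and 7 lower, and 6 higher and 10 lower, where 16.9% and 15.8%, 12.4% and 14.3%, and 21.1% and 23.2% of all genes were called higher and lower.

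TFDP1, the DP partner with which E2F1 to E2F6 bind DNA, stood at 40.1, 43.7 and 44.2 FPKM in shCont, 30.9, 33.5 and 33.4 in shp16, and 17.4, 16.5 and 14 in shp16+shATR. It stepped down from group to group with no overlap. The log2 fold change was -0.38 (adjusted p = 0.0275) in shp16 against shCont, -1.03 (SE 0.103, adjusted p = 0.000375) in shp16+shATR against shp16 and -1.42 (SE 0.104, adjusted p = 4.67e-06) in shp16+shATR against shCont. The latter pair of calls held under all 21 alternatives each, and the first under 10 of 22. TFDP2 had -0.21, -0.28 and -0.49, of which the last was called (adjusted p = 0.0185).

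With all 9 libraries no pocket protein was called in any comparison by edgeR, and none by DESeq2, and at an unadjusted p under 0.05 only RBL1, which encodes p107, was lower, in shp16+shATR against shp16 (-0.42, adjusted p = 0.22). RB1 had log2 fold changes of -0.01, 0.01 and 0.01 with an SE of 0.192, and RBL2, which encodes p130, had 0.12, -0.02 and 0.10. RB1 stood at 10.6, 19.9 and 21.1 FPKM in the shCont libraries, 16.9, 17.9 and 15.8 in shp16 and 16.4, 17.3 and 17.5 in shp16+shATR, so that shCont 1 was the lowest library and the other shCont libraries the highest. Without shCont 1 and shp16 1, RB1 was called lower against shCont in shp16 (-0.29, adjusted p = 0.00504) and in shp16+shATR (-0.24, adjusted p = 0.00678). RBL1 was then called lower in shp16+shATR against shp16 (-0.37, adjusted p = 0.00129) and against shCont (-0.48, adjusted p = 4.23e-05).

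Of the MuvB and MYB genes, LIN9 fell in shp16 (-0.42, adjusted p = 0.0399) and in shp16+shATR against shCont (-0.62, adjusted p = 0.00391), and RBBP4, a histone-binding subunit of many complexes, rose in shp16 (0.39, adjusted p = 0.0404). MYBL2, an E2F target that replaces the repressors in the complex, had 0.51 (adjusted p = 0.0677), -0.54 (adjusted p = 0.0909) and -0.03, and with shCont 1 and shp16 1 both left out it was called at 0.58, -0.40 and 0.18 (adjusted p = 9.43e-06, 0.000177 and 0.0469). LIN37, LIN52 and LIN54 were not called with all 9 libraries. With those 2 libraries left out LIN52 was called in shp16+shATR against shp16 (-0.43, adjusted p = 0.0292) and LIN54 against shCont (-0.36, adjusted p = 0.00202).

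The 3 genes for inhibitors of cyclin E and CDK2 each rose in at least 1 comparison. CDKN1A, which encodes p21, stood at 10.1, 9.17 and 9.91 FPKM in shCont, 8.79, 11.1 and 11.6 in shp16, and 18.7, 20.1 and 20.1 in shp16+shATR. The first pair of groups overlapped and the third lay above both. It rose in shp16+shATR against shp16 (0.91, SE 0.115, adjusted p = 0.0014) and against shCont (1.01, adjusted p = 9.99e-05), both under all 21 alternatives, and had 0.11 (adjusted p = 0.587) in shp16 against shCont.

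CDKN1B, which encodes p27, stood at 13.2, 17 and 15.1 FPKM in shCont, 17.7, 25.1 and 24.6 in shp16, and 32.4, 31.4 and 28.5 in shp16+shATR. It rose in shp16 (0.58, adjusted p = 0.00999) and in shp16+shATR against shCont (1.03, adjusted p = 0.000159), and had 0.46 (adjusted p = 0.0513) in shp16+shATR against shp16, which was 0.34 and called with shCont 1 and shp16 1 both left out (adjusted p = 0.000659). CDKN1C, which encodes p57, was low, at 0.598 to 1.73 FPKM, and rose in shp16 (1.02, adjusted p = 0.0171) and in shp16+shATR against shCont (0.90, adjusted p = 0.0204).

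Of the kinase and the A cyclins, CDK2 had 0.19, -0.28 and -0.09 and CDC25A, the phosphatase that activates it, 0.17, 0.03 and 0.20, none called. CDK2 was called, with shCont 1 and shp16 1 both left out, at 0.30 in shp16 against shCont and at -0.39 in shp16+shATR against shp16 (adjusted p = 0.00124 and 4.47e-05). CCNA2, the cyclin that follows cyclin E on CDK2 in S phase, rose in shp16 (0.44, adjusted p = 0.0334), fell in shp16+shATR against shp16 (-0.52, adjusted p = 0.0279) and had -0.09 (adjusted p = 0.659) in shp16+shATR against shCont. The rise held under 10 of 22 alternatives and the fall under 12 of 21. CCNA1, its germline relative, rose in shp16 (0.88, adjusted p = 0.000765) and in shp16+shATR against shCont (1.08, adjusted p = 0.000115).

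Among the turnover genes, FBXW7, the ligase subunit that recognises phosphorylated cyclin E, rose in shp16 (0.57, adjusted p = 0.0358) and its partner SKP1 fell (-0.41, adjusted p = 0.0403). CCNF, an F-box protein that targets activator E2F proteins, fell in shp16+shATR against shp16 (-0.45, adjusted p = 0.0359) and against shCont (-0.36, adjusted p = 0.0389). CUL1, CUL3, SKP2 and FZR1 were not called in any of the 3 comparisons with all 9 libraries. Leaving out both shCont 1 and shp16 1, CUL3 (-0.42 and -0.27, adjusted p = 0.000146 and 0.00195) and SKP2 (-0.39 and -0.49, adjusted p = 0.00734 and 0.000371) were called lower in shp16 and in shp16+shATR, each against shCont. Many of these single calls lay near the threshold: SKP1 in shp16 held under 12 of 22 alternatives, FBXW7 under 7, RBBP4 under 6 and LIN9 under 5, and CCNF held under 10 of 21 against shp16 and 11 of 21 against shCont.

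**Figure D3:**
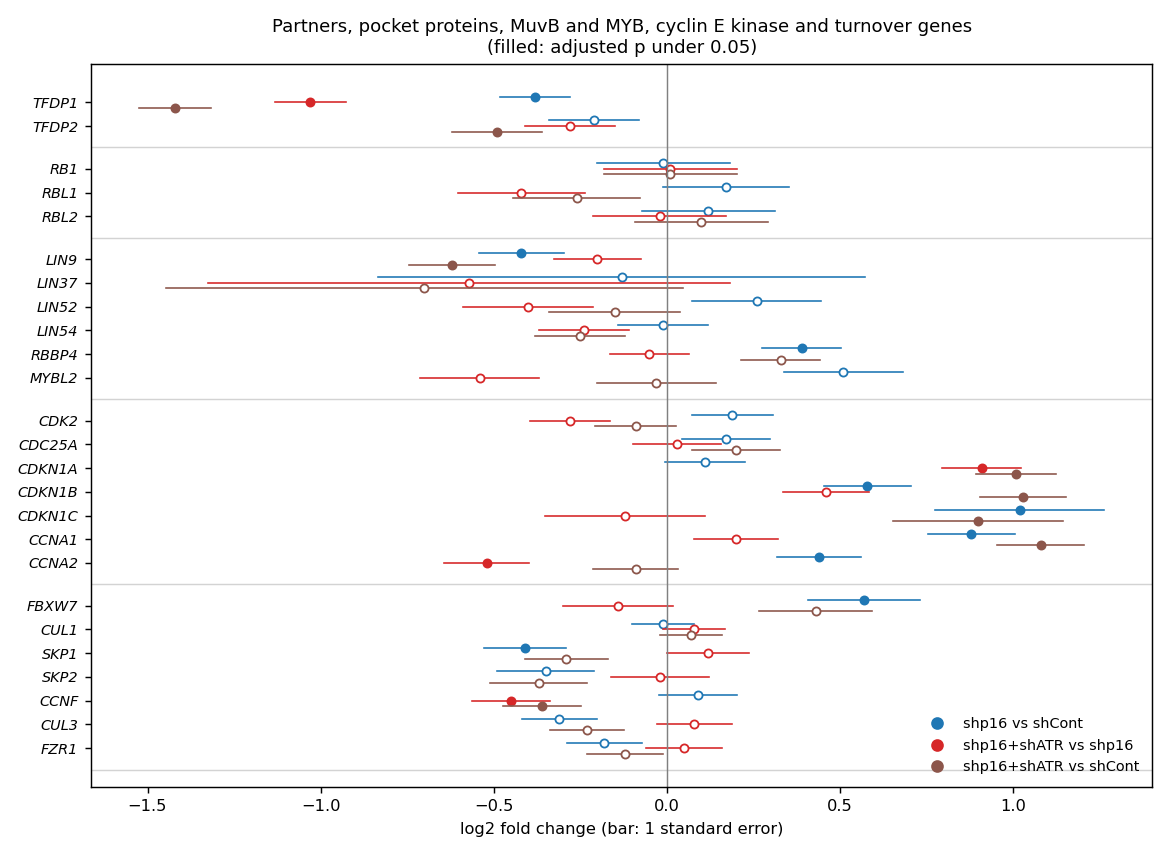
log2 fold change with 1 standard error (x axis) of the 25 tested partner, pocket protein, MuvB and MYB, kinase and turnover genes (y axis) in the 3 comparisons, from edgeR; filled points passed an adjusted p of 0.05. TFDP1 reaches -1.42 and CDKN1A, CDKN1B and CCNA1 lie between 1.01 and 1.08 in shp16+shATR against shCont, while RB1 lies within 0.01 of 0 when all 9 libraries are used.

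The G1/S genes that E2F is known to drive, 50 genes for DNA replication and nucleotide supply, were all tested. In shp16 against shCont 6 were called higher and 1 lower, beside 7.23% and 7.59% of all genes tested, and the 50 log2 fold changes had a median of 0.08, beside -0.02 for all genes tested. POLE, the catalytic subunit of the leading-strand polymerase, rose by 0.69 (adjusted p = 0.00125), GINS1, a subunit of the replicative helicase, by 0.62 (adjusted p = 0.00238) and TYMS, which makes thymidylate, by 0.43 (adjusted p = 0.0265). FEN1, the flap endonuclease, fell (-0.37, adjusted p = 0.0452). The number of calls moved with the settings. It was 2 higher and 1 lower with upper-quartile scaling, where 5.84% and 9.35% of all genes were called. Without shCont 1 it was 16 higher and 3 lower, where 13.4% and 12.5% of all genes were called. With shp16 1 left out as well it was 18 higher and 8 lower, where 16.9% and 15.8% were. Without any other single library it was 2 or 3, where 4.16% to 7.28% of all genes were called higher and 4.13% to 7.01% lower.

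In shp16+shATR against shp16, 21 of the 50 were called lower and 0 higher, beside 3.49% and 2.73% of all genes tested, with a median of -0.37 beside 0 for all genes tested. At an unadjusted p under 0.05, 33 were lower and 0 higher. DESeq2 called 28 lower and 0 higher, beside 2.58% and 2.07% of all its genes. The estimate was negative for all 50, the smallest in size being that of PCNA, which rounded to 0, and for 48 with upper-quartile scaling. CDT1, which licenses origins, stood at 26.3, 19.6 and 18.6 FPKM in shp16 and 11.1, 10.8 and 11.7 in shp16+shATR (log2 fold change -0.95, adjusted p = 0.0279).

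CLSPN, the adaptor through which ATR activates CHK1, stood at 10.5, 11 and 10.2 FPKM in shp16 and 5.12, 5.76 and 5.69 in shp16+shATR (-0.94, adjusted p = 0.0186). PRIM1, the primase subunit, stood at 16.7, 15.5 and 14.7 against 10.4, 7.57 and 8.57 FPKM (-0.83, adjusted p = 0.0078). For each of these 3 genes the groups did not overlap. The count of lower calls was 39 with shCont 1 and shp16 1 both left out, where 14.3% of all genes were called lower, and 34 without shCont 1 alone, where 11% were. It was 10, 9 and 9 without shp16 1, 2 and 3, where 1.83%, 1.49% and 1.49% of all genes were called lower. Without shp16+shATR a, b and c it was 7, 5 and 7, where 1.03%, 1.04% and 1.27% were.

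In shp16+shATR against shCont, 24 were called lower and 1 higher, beside 12.7% and 10.9% of all genes tested, with a median of -0.32 beside -0.02. POLE was the one called higher (0.53, adjusted p = 0.00398). CHAF1A, a histone chaperone of replicating chromatin, fell by 0.95 (adjusted p = 0.000143), GINS3 by 0.91 (adjusted p = 0.000916) and DTL, which directs the destruction of CDT1, by 0.88 (adjusted p = 0.000418). The counts of lower and higher calls with both libraries left out were 35 and 4, where 23.2% and 21.1% of all genes were called. They were 14, 14 and 15 lower with 1 higher without shp16+shATR a, b and c. There 7.58%, 7.76% and 7.63% of all genes were called lower and 6.96%, 6.84% and 7.25% higher.

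**Figure D4:**
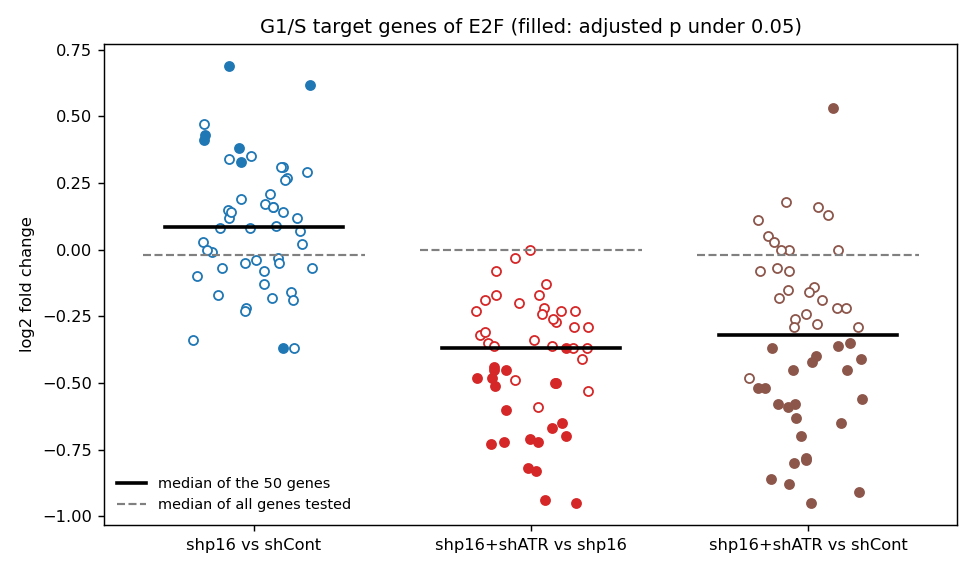
log2 fold change (y axis) of the 50 G1/S target genes of E2F in the 3 comparisons (x axis), 1 point per gene, from edgeR; filled points passed an adjusted p of 0.05, the solid line is the median of the 50 and the dashed line that of all 15776 genes tested. The medians of the 50 are 0.08, -0.37 and -0.32.

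The identity of the cells was read from marker lists. All 8 melanocyte lineage markers were above 0 in every group, with a summed level of 4840 to 5460 FPKM in shCont, 2560 to 4760 in shp16, where shp16 1 was the lowest, and 4010 to 4930 in shp16+shATR. Of these 8, 2 were called lower in shp16 against shCont, 1 higher and 1 lower in shp16+shATR against shp16 and 1 lower in shp16+shATR against shCont. In the same order, 7.59%, 3.49% and 12.7% of all genes tested were called lower and 7.23%, 2.73% and 10.9% higher. TYRP1, a pigment enzyme, was called lower in all 3 comparisons (-0.43, -0.88 and -1.31, adjusted p = 0.0228, 0.0014 and 1.41e-05). S100B was called lower in shp16 (-0.68, adjusted p = 0.013) and higher when the ATR hairpin was added (0.67, adjusted p = 0.0254).

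Of the 6 keratinocyte and epithelial markers, 5 were tested and 4 were called higher in shp16 and in shp16+shATR, each against shCont. Of all genes tested, 7.23% and 10.9% were called higher there. Between shp16+shATR and shp16, 0 of these markers were called (0 at an unadjusted p under 0.05, and 0 by DESeq2). Their summed level was 10.7 to 15.1 FPKM in shCont, 17.1 to 27.6 in shp16 and 19 to 24.2 in shp16+shATR, most of it KRT10. KRT5 and KRT1 were listed at 0 in all 3 shCont libraries and reached 1.21 and 4.11 FPKM in shp16, KRT14 went from at most 0.0962 to between 1.29 and 1.67 FPKM, and CDH1 from 0.348, 0.514 and 0.62 to 3.26, 3.98 and 3.72 FPKM.

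KRT5, KRT14, KRT1 and CDH1 moved between the same groups as E2F4 and CCNE1, while KRT10 was not called (0.11 and 0.19 against shCont). TYRP1 moved in every comparison in which members were called. The part of these genes in those results was not tested. Fibroblast markers summed to 11.3 to 13.5, 8.43 to 15.4 and 10.1 to 10.8 FPKM in shCont, shp16 and shp16+shATR, nearly all of it LUM. Of the 5 tested, 0 were called in shp16 against shCont (3 at an unadjusted p under 0.05, and 2 by DESeq2). In shp16+shATR against shCont 3 were called higher, beside 10.9% of all genes tested. Leukocyte and endothelial markers summed to at most 0.305 FPKM, with PTPRC and CD3E at 0 in every library. In bulk RNA, fewer cells in a phase of the cycle and less RNA per cell cannot be told apart.

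For each member that passed the test in any comparison, the genes with the most similar profile over the 9 libraries were sought among 13435 genes by the root mean square difference of centred log2 CPM. The closest to E2F1 were LMNB2 (0.0513), PPARD (0.0615) and PSMD2 (0.0688). The closest to E2F2 were TTYH3 (0.0527), MTHFD2 (0.0535) and ZC3H7B (0.0655), and to E2F8 they were ALG9 (0.0784), PM20D2 (0.10) and KLHL23 (0.104). The closest to E2F4 were COPZ2 (0.107), CHPF (0.11) and PPP1R15A (0.119), to CCNE1 DEGS1 (0.0635), SPR (0.065) and PPFIA3 (0.0714), and to CCNE2 ITGA9 (0.143), SGMS1 (0.162) and BARD1 (0.167).

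Within the 10 members, E2F1 and E2F2 were each other's nearest, with a difference of 0.111 log2 units, as were E2F4 and CCNE1 at 0.251. E2F8 lay nearest to E2F2 (0.173), E2F7 to E2F8 (0.191) and CCNE2 to E2F8 (0.218). These distances rest on the same 9 libraries as the tests and describe the profiles only.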

How the data were processed

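Total RNA of 9 SKMEL28 libraries was extracted with Trizol and columns, and libraries, sequencing and primary analysis were made by a service provider for the authors. The authors deposited raw read counts per gene and FPKM values. The deposited count of each gene, scaled by gene length and library total, gave the deposited FPKM of each library within a relative difference of 4.22e-07. By this identity the 3 count columns of shp16+shATR, which share 1 header and are called a, b and c, correspond to FPKM columns 1, 2 and 3. The submitters' processing notes name STAR 2.6.1, DESeq2 and GRCh38 without a role. Gene positions in the table shared a start or end with GENCODE v29 (GRCh38) for 0.695% of 45342 genes, so they are not printed. Counter, annotation and strand setting are not given in the sources used here.

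Counts were tested with edgeR 4.0.16 (TMM, filterByExpr, quasi-likelihood test, all 9 libraries in 1 model of 3 groups, R 4.3.3), with Benjamini-Hochberg adjustment over 15776 genes and a threshold of 0.05. The common biological coefficient of variation was 0.149, and 0.0553 with shCont 1 and shp16 1 left out. An exact permutation test of 3 against 3 libraries cannot go below p = 0.1 and was not used for calls. DESeq2 1.42.0 and limma 3.58.1 (log2 of FPKM plus 1 or 0.1) were alternatives. The procedure was tested on simulated data, where it missed most of the smaller changes put in and some of the larger ones. A gene that was not called is therefore not shown to be unchanged. Genes named are the 10 members, CDKN2A, ATR, all genes of the partner, pocket, MuvB and MYB, kinase and turnover lists, the 3 G1/S targets called with the largest rise and fall in each comparison, and the 3 nearest genes of each called member with a mean of at least 1 CPM. PCNA, the marker genes and the genes that overlap members were named after their values were seen. Members and lists were chosen with earlier results of these data known.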

Additional observations from a re-analysis of the deposited data

How the results depend on the processing

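Counts of calls are given in the order members, partner network genes, G1/S targets. For shp16 against shCont they were 2, 9 and 7. With only the groups compared in the model they were 1, 3 and 2, at an adjusted p of 0.01 they were 1, 2 and 2, and with shp16 2 and 3 summed they were 1, 3 and 2. Upper-quartile scaling gave 3 targets, with 2397 calls over all genes. Leaving out 1 library gave 1 to 3 members, 2 to 12 network genes and 2 to 19 targets. For shp16+shATR against shp16 the counts were 3, 4 and 21. With only the groups compared they were 6, 7 and 33, at an adjusted p of 0.01 the latter pair was 2 and 6, and with shp16 2 and 3 summed it was 2 and 8. Leaving out 1 library gave 1 to 6, 2 to 7 and 5 to 34. For shp16+shATR against shCont the counts were 5, 8 and 25, at an adjusted p of 0.01 they were 3, 5 and 14, and leaving out 1 library gave 3 to 8, 5 to 13 and 15 to 34. Leaving out both shCont 1 and shp16 1, chosen after seeing the data, gave 2, 15 and 26, then 7, 10 and 39, then 8, 16 and 39. Over all genes it called 5264, 4304 and 7130 in place of 2339, 981 and 3724, and only the groups compared called 1186, 2878 and 3012. Leaving out 1 library called 1344 to 4192, 292 to 3223 and 2354 to 5395 of all genes. At an adjusted p of 0.01 the calls over all genes fell to 994, 309 and 1974. With shp16 2 and 3 summed they were 1368, 399 and 3246. The cause of these shifts was not tested.

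Correlations of deviations between same-numbered libraries ran from -0.34 to 0.32, and those between differently numbered ones from -0.4 to 0.46. With 3 libraries per group, whose deviations sum to 0, these values cannot show whether libraries were handled in pairs. With the number as a replicate block, limma on log2 of FPKM plus 1 called 1, 5 and 5, then 2, 2 and 14, then 3, 8 and 21. Over all genes it called 1513, 481 and 2985. The replicate block in edgeR on the numbered count columns of shCont and shp16 called 0, 1 and 0 (425 over all genes), with 2 degrees of freedom left.

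No called member changed sign under any alternative. Uncalled estimates near 0 did. In shp16 against shCont, leaving out 1 library gave E2F7 -0.19 (without shCont 1) to 0.25 and CCNE2 -0.35 to 0.05, with 0 without shp16 3, and without both libraries E2F7 was -0.16. In shp16+shATR against shp16, leaving out 1 library gave E2F3 -0.03 to 0.10, and it was -0.01 with shp16 2 and 3 summed. There E2F5 was 0.02 with upper-quartile scaling, 0 with shp16 2 and 3 summed and -0.16 to 0.05 with 1 library left out, and against shCont it was -0.05 to 0.15 with 1 library left out.

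Of 640 settings of single members, 563 kept direction and side of the threshold, 40 lost the call, 23 gained it and 14 changed sign. Of the members, E2F5 (39 to 66 counts) and CCNE2 (93 to 235 counts) had the lowest counts.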
